A study of Homo sapiens with 36 samples.

Results

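The 75 genes described here stood at least 1 log2 unit above vehicle in all 5 CDK4 inhibitor treatments of LNCaP cells at 72 h and, on average over the treatments, less than 0.5 above it at 24 h. They were chosen by the deposited values themselves. For each gene, d was the mean log2(normalised count + 1) of the 3 libraries of a treatment minus that of the 3 vehicle libraries of the same time point. A gene was kept when d was at least 1 in each of the 5 treatments at 72 h, when the mean of the 5 d values at 24 h was under 0.5, and when its mean normalised count over the 15 treated libraries of 72 h was at least 30. Of 29872 genes in the table, 363 had d of at least 1 in all 5 treatments at 72 h, 182 of these also met the 24 h condition, and 75 also met the level. They make up 0.563% of the 13320 genes at that level. Every difference from vehicle given below was used to choose the genes and is a description with no test.

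LNCaP is an established human prostate cancer cell line derived from a lymph node metastasis and depends on the androgen receptor. The 6 groups at each time point were vehicle, AU2-94 at 1 or 2 µM, atirmociclib at 1 or 2 µM and ribociclib at 2 µM, each with 3 biological replicates at 24 h and at 72 h, which gave 36 libraries. The labels give the replicate number as a batch. AU2-94 and atirmociclib are described in the study as CDK4-selective, and ribociclib inhibits both CDK4 and CDK6. All groups are 1 cell line, and cells meant for 72 h were seeded more sparsely than those for 24 h, so time and seeding density cannot be told apart. The labels also carry a dose for the vehicle groups, which is not used here.

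CDK4 and CDK6, bound to D-type cyclins, phosphorylate the retinoblastoma protein and so release E2F transcription factors that drive entry into S phase. Their inhibitors therefore stop cells in G1, and genes of DNA replication fall. The androgen receptor, a hormone-activated transcription factor, drives the secretory genes of the luminal prostate cell, with prostate-specific antigen as the best known.

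Totals of the normalised counts ran from 20675156 to 22692555 per library, with 19708 to 21405 genes above 0. The totals differed by agent at 72 h. They ran from 22577368 to 22692555 with atirmociclib at 2 µM and from 20910659 to 21160254 over both doses of AU2-94. The 11 markers of luminal prostate cells fixed for this line were all present, with a summed level of 121525 to 124700 in the vehicle libraries of 72 h and 168627 to 207986 in the treated ones. KLK3, itself one of the 75, is part of that sum. Without it the other 10 markers summed to 100553 to 104898 in vehicle and 126073 to 153838 in treated cells at 72 h, and to 99581 to 103434 and 135397 to 149350 at 24 h. Markers of other cell types were low at 72 h: the sum of 6 basal markers was 752 to 1123 in vehicle and 697 to 1076 in treated libraries, of 8 fibroblast markers 521 to 661 and 529 to 700.0, of 7 leukocyte markers 45.3 to 92.2 and 61.6 to 141, and of 6 endothelial markers 185 to 252 and 243 to 713. Their part in the differences below was not tested, and none of these markers was listed at 0 in every library. In these bulk samples, fewer cells of a type and less RNA per cell cannot be told apart.

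The genes nearest the thresholds show where the set ends. The smallest d at 72 h was just inside for SLC4A3 (1.010), NATD1 (1.015) and FOSL2 (1.020), and just outside for PGGHG (0.998), GPT (0.995) and KCNH2 (0.991). The mean d at 24 h was just inside for LRRC7 (0.479), THRSP (0.478) and CYP1A1 (0.469), and just outside for FBLIM1 (0.522), ANO7 (0.542) and HSH2D (0.551). The mean normalised count was just inside for SLC45A2 (30.6), BRSK1 (30.9) and SERPIND1 (32.0), and just outside for KRT6C (29.8), CCAT2 (29.7) and STING1 (28.2).

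Before the values, 3 stretches of promoter sequence are shown: KLK3 because it had the highest level of the 75, MMP7 because it had the largest mean d at 72 h, and CYP1A1 because it differed most between the agents. Each is the 250 bases before the RefSeq start site (GRCh38.p14), printed 5′ to 3′ on the gene's own strand. They lie at chr19:50854665-50854914 on the plus strand, chr11:102530748-102530997 on the minus strand and chr15:74725529-74725778 on the minus strand. Capitals mark matches to motif letters on either strand.
KLK3: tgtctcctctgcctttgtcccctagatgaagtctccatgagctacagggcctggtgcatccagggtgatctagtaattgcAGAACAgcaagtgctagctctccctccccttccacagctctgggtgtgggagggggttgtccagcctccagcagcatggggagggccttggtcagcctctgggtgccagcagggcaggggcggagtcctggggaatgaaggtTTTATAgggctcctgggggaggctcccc
MMP7: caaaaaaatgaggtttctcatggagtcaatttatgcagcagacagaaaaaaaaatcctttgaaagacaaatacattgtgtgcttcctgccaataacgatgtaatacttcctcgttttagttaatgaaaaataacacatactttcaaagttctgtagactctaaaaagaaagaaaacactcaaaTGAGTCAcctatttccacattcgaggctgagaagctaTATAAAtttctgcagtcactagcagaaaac
CYP1A1: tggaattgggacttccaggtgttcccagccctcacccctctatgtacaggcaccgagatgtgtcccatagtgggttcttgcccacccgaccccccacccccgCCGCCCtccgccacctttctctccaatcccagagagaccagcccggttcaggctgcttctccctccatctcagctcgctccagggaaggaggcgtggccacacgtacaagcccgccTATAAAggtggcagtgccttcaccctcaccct
In KLK3 the capitals are AGAACA, a core element of androgen and glucocorticoid receptor sites, at -170 (its first base, counted back from -1 just before the start), and a TATA box on the other strand, written TTTATA, at -28. In MMP7 they are an AP-1 site, written TGAGTCA, at -67 and the TATA box TATAAA at -30. In CYP1A1 they are a GC box, written CCGCCC, at -148 and TATAAA at -32. A match is a run of letters, not a shown binding site, and other matches to the letters searched were left in lower case.

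The start sites of the 75 genes were poorer in CpG than those of expressed genes in general. CpG islands cover most promoters of widely expressed genes, while many tissue-restricted genes start in CpG-poor sequence. In windows from 250 bases before to 50 after the GENCODE start site, read from GRCh38 with GENCODE release 44 for all 75 genes and for 13313 genes at the same level, the median CpG observed to expected ratio was 0.44 against 0.85, and the median GC content 56.7% against 66%. The ratio was under 0.6 in 49 of 75 windows (65.3%) against 15.3% of all. The gap was also there within classes: 30 of 54 protein-coding genes (55.6%) against 11.4%, and 19 of 21 long non-coding RNAs (90.5%) against 42.8%. Low-level genes were more often CpG-poor, and among genes with a mean of 30 to 300 the shares were 70.2% (40 of 57) and 29.6%. These shares describe the set, and no test of them was made. Genes with near-identical copies, such as POTEE and POTEF, were counted as separate windows here and in the motif shares below.

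**Figure D1:**
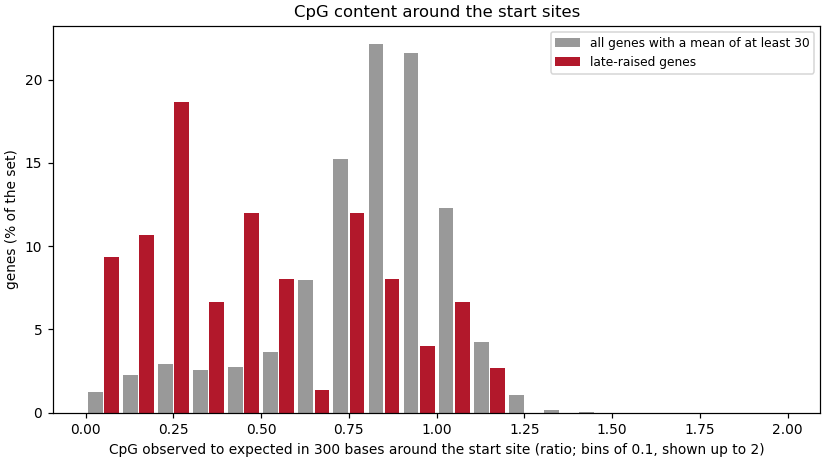
Share of genes (y axis, % of the set) by the CpG observed to expected ratio of the 300 bases around the start site (x axis, ratio, bins of 0.1), for the 75 late-raised genes (red) and all genes whose mean count reached 30 (grey). The red bars lie mostly under 0.6, where 65.3% of the 75 genes and 15.3% of all genes fall.

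Of the motif letters searched on both strands of these windows, the AP-1 site TGACTCA was in 8 of 75 (10.7%) against 2.29% of all windows, AGAACA in 16 (21.3%) against 8.18%, TATAAA in 10 (13.3%) against 5.55% and the CHR element TTTGAA in 16 (21.3%) against 9.23%. Since such letters are commoner in CpG-poor sequence, the same shares were read in windows with a CpG ratio under 0.6. There they were 10.2% against 5.25% for TGACTCA, 28.6% against 16.1% for AGAACA, 18.4% against 15.4% for TATAAA and 28.6% against 17.6% for TTTGAA. The GC box GGGCGG was rarer, in 34 (45.3%) against 72.3%, with 24.5% against 31.4% in windows under 0.6, and the E2F site TTTGGCGC was in 0 of 75 against 1.07%. The 8 genes with TGACTCA were MMP7, VWA7, CYP4F30P, PCAT1, CCDC159, GPNMB, SLC4A3 and FOSL2, the last of which encodes a subunit of AP-1. CAGCTG was in 26.7% against 16.1% of all windows, but in 18.4% against 20.6% of those under 0.6, so the order turned. The remaining letters searched are given for all windows and then for those under 0.6. CCAAT was in 41.3% against 36.8%, then 51% against 40.2%, and TGACGTCA in 1.33% against 3.47%, then 2.04% against 0.981%. CACGTG was in 9.33% against 10.1%, then 6.12% against 5.69%, and ACGTG, which includes every CACGTG, in 24% against 26.6%, then 14.3% against 17.1%. GTAAACA was in 2.67% against 2.31%, then 4.08% against 4.46%.

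At 72 h the median d of the 75 genes was 1.46 with AU2-94 at 1 µM, 1.45 at 2 µM, 1.68 with atirmociclib at 1 µM, 1.57 at 2 µM and 1.57 with ribociclib. At 24 h the medians were 0.01, 0.17, 0.10, -0.09 and 0.08. Over all genes at the level every one of these medians lay between -0.02 and 0.02. The mean of the 5 values at 72 h was at least 2 in 15 genes, from 1.5 to 2 in 32 and under 1.5 in 28. At 24 h the mean of the 5 was below 0 in 33 of the 75 genes and ran from -1.03 for CERK, a ceramide kinase, to 0.48 for LRRC7. In 62 of 75 genes all 15 treated libraries of 72 h lay above all 3 vehicle libraries, a pattern found in 11.5% of all genes at the level, and at 24 h this held for 2 genes, KLK3 and ZNF506, against 12.9% of all genes. Both counts follow from how the genes were chosen. The heat map of d shows the block of 72 h columns and the mixed signs at 24 h.

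**Figure D2:**
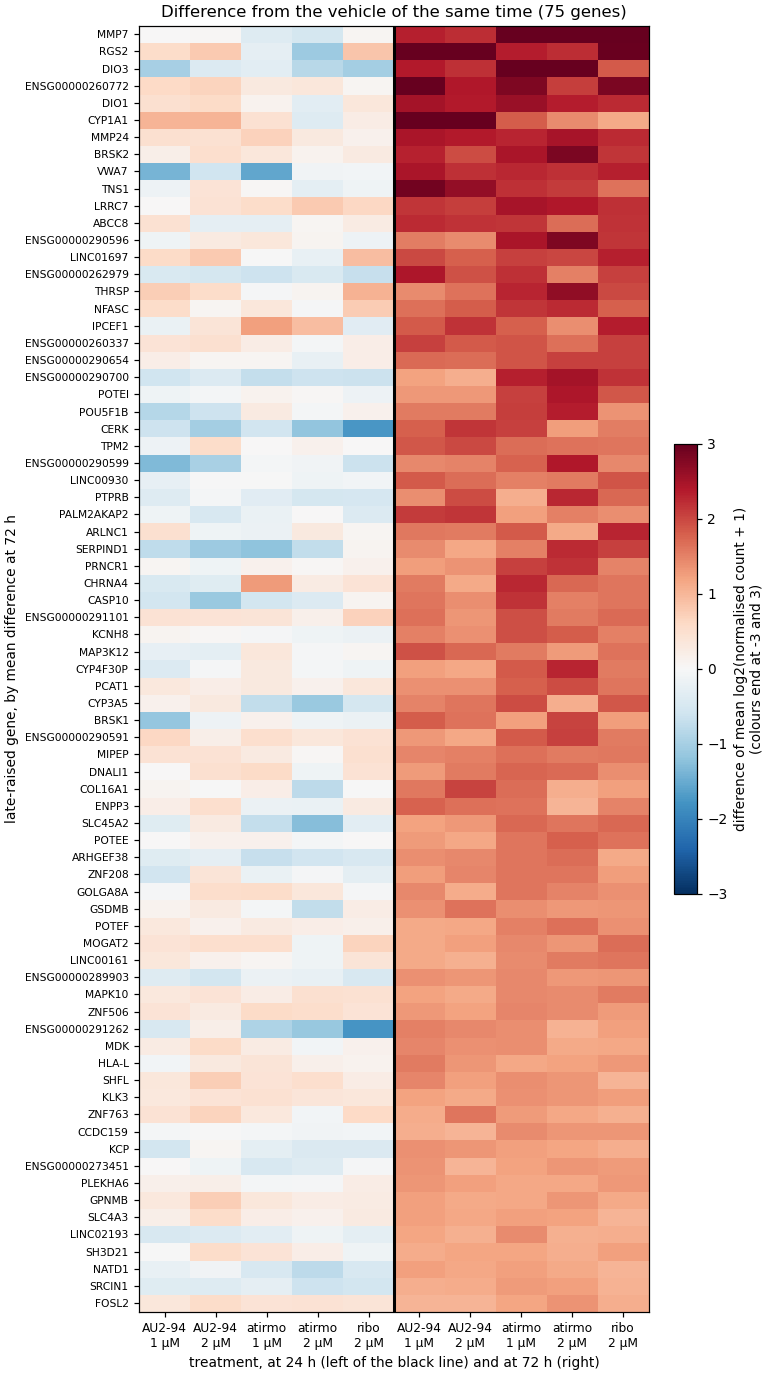
Difference d of mean log2(normalised count + 1) from the vehicle of the same time point (colour, with ends at -3 and 3) for the 75 late-raised genes (rows, by mean d at 72 h) in the 5 treatments at 24 h (left) and at 72 h (right). Every cell on the right is at 1 or above by the choice of the genes, whereas the left panel holds both signs, with CYP1A1 at 1.03 in AU2-94 2 µM and VWA7 at -1.55 in atirmociclib 1 µM.

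The 72 h difference was made by 2 movements. From 24 h to 72 h the vehicle mean fell in 73 of 75 genes (97.3%) against 47.2% of all genes at the level, with a median change of -0.81, and the mean of the 5 treated groups rose in 71 genes (94.7%) against 49.7%, with a median change of 0.81. Over all genes at the level the medians were 0.01 and 0.00. Both happened in 69 genes, and in 40 of the 75 the vehicle change was the larger of the 2 in size. The choice of genes favours both movements, so these shares are not evidence of either. The vehicle change ran from -2.24 in ENSG00000260772 to 0.18 in THRSP, and the treated change from -0.38 in ENSG00000291101 to 1.69 in THRSP. DIO3 fell by 2.06 in vehicle and rose by 1.34 in treated cells. ZNF506, a zinc finger protein, fell by 1.03 in vehicle and changed by -0.14 in treated cells.

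**Figure D3:**
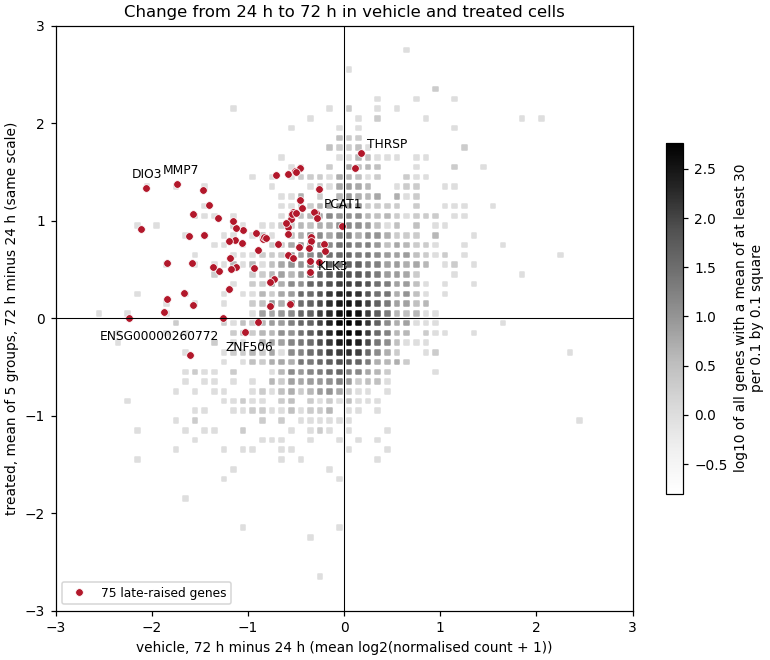
Change from 24 h to 72 h of mean log2(normalised count + 1) in vehicle (x axis) and in the mean of the 5 treated groups (y axis) for the 75 late-raised genes (red) over all genes with a mean of at least 30 (grey squares, log10 of the number of genes). The red points fill the upper left, with 69 of 75 genes lower in vehicle and higher in treated cells at 72 h than at 24 h.

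KLK3 encodes prostate-specific antigen, the secreted serine protease used as the blood marker of prostate cancer and a classic target of the androgen receptor (GRCh38 chromosome 19, 50854915 to 50860764, plus strand). At 72 h its normalised counts were 20972, 20799 and 19802 in vehicle, 48236, 46629.7 and 47444 with AU2-94 at 1 µM and 42554, 47315 and 45775 at 2 µM. They were 51497, 53405 and 55194 with atirmociclib at 1 µM, 48388, 52456 and 54148 at 2 µM and 47194, 48315 and 51463 with ribociclib. The 15 treated libraries lay above the 3 vehicle libraries at both times, since at 24 h they ran from 27660.1 to 32870.4 (median 30541) over vehicle values of 23132, 24802 and 22731. Its d rose from 0.37 in the mean of the treatments at 24 h to 1.26 at 72 h, so KLK3 was already somewhat above vehicle at 24 h, within the limit of 0.5. Per kilobase of exon its mean treated level at 72 h was 10600, the highest of the 75, and the next was LINC00161 at 466. It was 1 of 92 genes of an androgen response list at the level (1.09%, against 0.563% of all genes at the level). The median mean d of that list was 0.28 at 24 h and 0.11 at 72 h. The other 91 were outside the set.

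ARLNC1 is a long non-coding RNA regulated by the androgen receptor. It was at 22.4, 31.5 and 30.9 in vehicle and 108, 141 and 178 with ribociclib at 72 h. With atirmociclib it was at 98.4, 103 and 108 at 1 µM and 48, 67.9 and 74.6 at 2 µM, and with AU2-94 at 69.8, 92.4 and 98.8 at 1 µM and 75.2, 80.5 and 101 at 2 µM. All treated libraries lay above vehicle, and the ribociclib libraries lay above those of atirmociclib at 2 µM without overlap.

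The long arm of chromosome 8 near MYC held 3 of the genes side by side: PCAT1 and PRNCR1, long non-coding RNAs named for prostate cancer, and POU5F1B, a retrogene of the pluripotency factor POU5F1. PCAT1 spans 126556323 to 127419050 on the plus strand of GRCh38 and holds PRNCR1 (127079874 to 127092600) within its span, and its exons share 848 bases with POU5F1B on the same strand, so reads there can be counted for either. At 72 h PCAT1 was at 403, 409 and 410.3 in vehicle. AU2-94 gave 1026, 1082 and 1031 at 1 µM, and 963, 1026 and 1159 at 2 µM. Atirmociclib gave 1442, 1478 and 1351 at 1 µM, and 1502, 1619 and 1630.0 at 2 µM, and ribociclib 1236, 1199 and 1298. PRNCR1 was at 297, 259 and 297 in vehicle. AU2-94 gave 593, 736 and 726 at 1 µM, and 696, 722 and 759 at 2 µM. Atirmociclib gave 1171, 1257 and 1144 at 1 µM, and 1206, 1248 and 1390.1 at 2 µM, and ribociclib 819, 675 and 905. In both genes vehicle was lowest and the 6 atirmociclib libraries stood above all others, while ribociclib lay above AU2-94 in PCAT1 and overlapped it in PRNCR1. At 24 h their treated libraries overlapped vehicle. Those of PCAT1 ran from 473 to 684 (median 608) beside vehicle values of 490.5, 527 and 478, and those of PRNCR1 ran from 343 to 477 (median 436) beside 428, 425 and 389. POU5F1B was at 19.3, 34.5 and 17.7 in vehicle and ran from 47.1 to 136 (median 76.3) over the treated libraries of 72 h. It also has a stretch of 930 bases at 98.1% identity to POU5F1, whose mean d at 72 h was -0.29. Of their neighbours, CCAT2 lay just under the level with a mean d of 1.36, while MYC had 0.31, PVT1 0.44 and LRATD2, which overlaps the start of PCAT1 on the other strand, -0.38.

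The largest group by position was on chromosome 2, where 9 of the genes lie between 130012065 and 131299819: POTEE, POTEF and POTEI, 5 long non-coding RNAs with no symbol (ENSG00000290591, ENSG00000290596, ENSG00000290599, ENSG00000290654 and ENSG00000290700) and CYP4F30P, a cytochrome P450 pseudogene. POTE genes are primate-specific, encode proteins with ankyrin repeats and are expressed in prostate, ovary, testis and placenta. In all, 13 of the 75 genes (17.3%) were on chromosome 2 against 6.29% of all genes at the level. POTEI was at 209.7, 177 and 195 in vehicle at 72 h. AU2-94 gave 490.3, 493 and 449.9 at 1 µM, and 497, 469.7 and 478 at 2 µM. Atirmociclib gave 713, 861 and 852 at 1 µM, and 1006, 1055 and 1057 at 2 µM, and ribociclib 648, 758 and 707. Among the treated libraries the 6 of AU2-94 were lowest and the 3 of atirmociclib at 2 µM highest, neither overlapping any other group, while ribociclib and atirmociclib at 1 µM overlapped. At 24 h vehicle was at 368, 426 and 421 and the treated libraries ran from 344 to 447 (median 392). POTEE went from 194 ± 7.3 (SD, n = 3) in vehicle to 678 ± 26.9 with atirmociclib at 2 µM, and POTEF from 324 ± 43.7 to 1018 ± 80.7. The mean d of the 9 genes at 72 h ran from 1.36 for POTEF to 2.08 for ENSG00000290596. POTEF shares 3917 bases at 99.3% identity with POTEE and 4030 at 98.1% with POTEI, and ENSG00000290596 shares 1887 at 99.4% with ENSG00000290700, so how reads were divided among them is uncertain and the 9 are not independent genes.

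**Figure D4:**
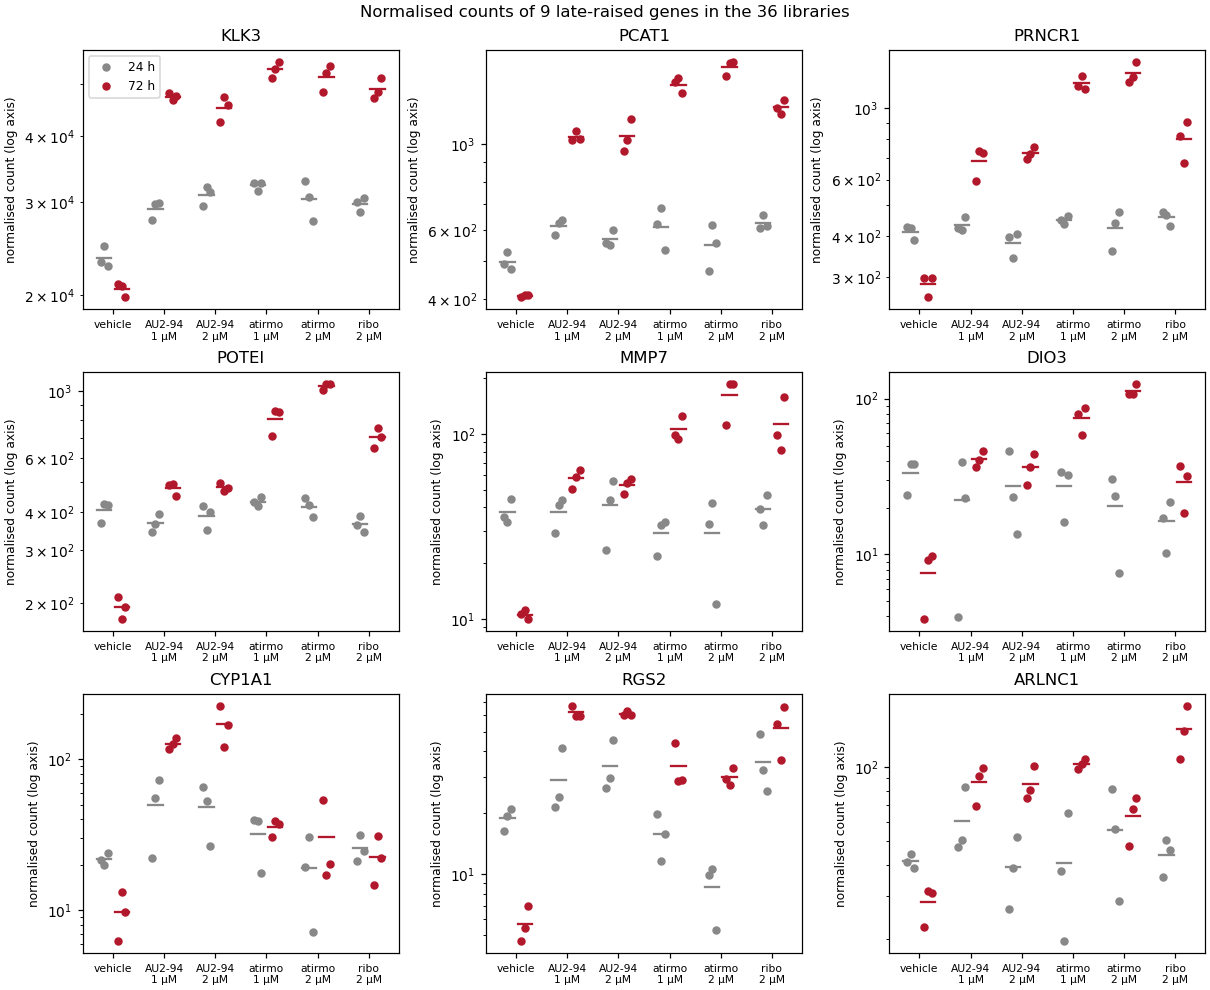
Normalised counts (y axis, log scale) of 9 late-raised genes in the 36 libraries, by treatment (x axis) at 24 h (grey) and at 72 h (red). Each point is a library and each bar the mean of 3, and in all 9 genes the vehicle mean at 72 h lies below that at 24 h while the treated libraries of 72 h lie above all 3 vehicle libraries of 72 h.

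Proteases and their inhibitors gave 4 of the 75 genes out of 66 at the level (6.06%, against 0.563% of all genes at the level). MMP7, matrilysin, is a small secreted metalloprotease of glandular epithelium. It was at 10.6, 11.2 and 9.94 in vehicle at 72 h. AU2-94 gave 50.1, 58.6 and 64 at 1 µM, and 47, 54.2 and 57 at 2 µM. Atirmociclib gave 98.7, 93.4 and 125 at 1 µM, and 112, 187 and 185 at 2 µM, and ribociclib 98.6, 81.6 and 157. At 24 h vehicle was at 35.4, 33.5 and 44.6 and the treated libraries overlapped it, from 12.1 to 55.3 (median 33.4). Its d of 2.21 to 3.78 at 72 h was the largest of the set in the mean (2.95), and the vehicle fell by 1.74 from 24 h to 72 h. MMP24, a membrane-bound metalloprotease, was at 25.9, 18.6 and 14.1 in vehicle at 72 h and ran from 79.3 to 123 (median 104) over the treated libraries, with d of 2.24 to 2.47 across the 5 treatments. Its exons share 806 bases with MMP24OS on the other strand, whose mean d was 0.50. SERPIND1, heparin cofactor II, an inhibitor of thrombin, was at 2.86, 11.1 and 18.5 in vehicle and ran from 17.7 to 59.5 (median 29.1) in treated cells.

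DIO1, DIO3 and THRSP are described together after their values were seen, and no list of related genes was counted. DIO1 converts the prohormone thyroxine to its active form, and DIO3 inactivates both. DIO1 was at 22.5, 15.2 and 24.9 in vehicle at 72 h and ran from 71.7 to 142 (median 119) over the treated libraries, with d of 2.24 to 2.59. DIO3 was at 3.83, 9.27 and 9.75 in vehicle. AU2-94 gave 36.3, 40.5 and 46.4 at 1 µM, and 27.9, 36.5 and 44.3 at 2 µM. Atirmociclib gave 79.5, 58.6 and 87 at 1 µM, and 107, 107 and 125 at 2 µM, and ribociclib 37.1, 18.4 and 32. At 24 h DIO3 was at 24.1, 38.3 and 38.1 in vehicle and ran from 3.99 to 46 (median 23.2) in treated cells, so it was lower in the mean of treated cells than in vehicle then. THRSP, a nuclear protein of fatty acid synthesis named for its response to thyroid hormone, was at 10.5, 17.6 and 11.7 in vehicle and ran from 29.3 to 96.2 (median 49.8) in treated cells at 72 h.

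The xenobiotic and steroid list gave CYP1A1 and CYP3A5 out of 36 genes at the level (5.56%, against 0.563% of all genes at the level). CYP1A1 oxidises polycyclic aromatic compounds and is the standard target of the aryl hydrocarbon receptor. It was at 6.24, 13.2 and 9.7 in vehicle at 72 h. AU2-94 gave 117, 126 and 137 at 1 µM, and 226, 119.8 and 169 at 2 µM. Atirmociclib gave 30.6, 39.2 and 37.2 at 1 µM, and 53.6, 17.3 and 20.3 at 2 µM, and ribociclib 14.8, 31.1 and 22.1. The 6 AU2-94 libraries stood apart from all others. At 24 h AU2-94 libraries were at 22.3, 55 and 73.1 at 1 µM and 65.5, 53.3 and 26.7 at 2 µM over vehicle values of 21.4, 19.8 and 24, so the gene was already at d of 1.02 and 1.03 with AU2-94 at 1 and 2 µM, and its place in the set rested on the mean over the 5 treatments. CYP3A5, which oxidises steroids and many drugs, was at 35.9, 41 and 40.7 in vehicle and ran from 77.7 to 168 (median 121) in treated cells at 72 h. Of other metabolic genes, MOGAT2, which makes diacylglycerol, had a mean d of 1.36, and CERK 1.76 after -1.03 at 24 h. MIPEP, a peptidase of mitochondrial import, was at 292 ± 47.3 (SD, n = 3) in vehicle with d of 1.46 to 1.66. ENPP3, a cell-surface nucleotide pyrophosphatase, had 1.52.

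Signalling genes came from several pathways. RGS2 speeds the switching-off of G proteins and is a known immediate-early gene. It was at 4.68, 5.44 and 7 in vehicle at 72 h. AU2-94 gave 67, 59.8 and 59.3 at 1 µM, and 60, 63.1 and 60.6 at 2 µM. Atirmociclib gave 43.8, 28.7 and 28.8 at 1 µM, and 29.3, 27.3 and 33.3 at 2 µM, and ribociclib 54.3, 36.2 and 66.3. All treated libraries were above vehicle, and the AU2-94 libraries above all atirmociclib ones. FOSL2, a Fos-family subunit of AP-1, was at 429 ± 43.5 (SD, n = 3) in vehicle, with d of 1.02 to 1.34 at 72 h and 0.42 in the mean at 24 h. Kinases were MAP3K12 (mean d at 72 h 1.62) and MAPK10 (1.35), which belong to the JNK pathway, and BRSK2 (2.34) and BRSK1 (1.59), kinases related to AMPK and best known in neurons. MAP3K12 shares 1494 exon bases with PCBP2 on the other strand. The other signalling genes were the growth factor MDK (1.31), the receptor phosphatase PTPRB (1.69), the exchange factor ARHGEF38 (1.45), IPCEF1 (1.92), the adaptor SRCIN1 (1.15), PLEKHA6 (1.23) and KCP (1.24), a secreted modulator of BMP signals. CASP10 (1.65) and GSDMB (1.40), a caspase and a pore-forming gasdermin, take part in cell death, and SHFL (1.28) is an antiviral factor.

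The remaining protein-coding genes have varied roles and are not a group fixed as a list. LRRC7, a scaffold of the synapse, was at 40.3, 33.5 and 40 in vehicle and ran from 118 to 284 (median 192) in treated cells at 72 h. NFASC, the adhesion protein neurofascin, was at 39.5, 29.6 and 26.4 in vehicle and ran from 94.1 to 188 (median 116) in treated cells. The potassium channel KCNH8 was at 106, 97.7 and 98.5 in vehicle and ran from 249 to 401 (median 308) in treated cells. CHRNA4 (1.65 in mean d at 72 h), a nicotinic receptor subunit, and ABCC8 (2.08), a subunit of ATP-sensitive potassium channels, had treated and vehicle libraries of 72 h that overlapped. The same overlap was found in BRSK2, BRSK1, PTPRB, PALM2AKAP2, COL16A1, ZNF763, ENPP3, SERPIND1, LINC02193, ENSG00000260772 and ENSG00000291262. In BRSK2 the vehicle libraries of 72 h were at 7, 37.9 and 7.11. A separate list of neuronal and neuroendocrine genes, with 28 at the level, gave 0 of the 75 and had a median mean d at 72 h of 0.20. Over all genes at the level the share of members was 0.563%. KCNH8 and CHRNA4 were 2 of 78 ion channels at the level (2.56%), and ABCC8 was 1 of 27 ABC transporters (3.7%). Cytoskeleton and matrix genes were TNS1 (2.28), TPM2 (1.75), PALM2AKAP2 (1.68), DNALI1 (1.53) of the axoneme, and COL16A1 (1.52), 1 of 14 collagens at the level. The transporters SLC45A2 (1.51) and SLC4A3 (1.17) were 2 of 223 solute carriers, and GPNMB (vehicle 29.3, 43.3 and 37.1, treated from 67.5 to 120.4 (median 80.6)), like SLC45A2, is best known from pigment cells. VWA7 (2.29), CCDC159 (1.24), NATD1 (1.16), SH3D21 (1.16), GOLGA8A (1.40) and the zinc finger genes ZNF208 (1.44), ZNF506 (1.33) and ZNF763 (1.25), 3 of 574, complete the protein-coding genes.

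Long non-coding RNAs were 21 of the 75 (28%) against 12.4% of the genes at the level. Beside those on chromosomes 2 and 8 and ARLNC1 they were LINC01697 and LINC00161, neighbours on chromosome 21 with no other gene of the table between them, LINC00930 and ENSG00000260337, which are 18045 bases apart on chromosome 15, LINC02193, HLA-L, a class I pseudogene, and ENSG00000260772, ENSG00000262979, ENSG00000273451, ENSG00000289903, ENSG00000291101 and ENSG00000291262. LINC00161 was at 140.5, 164 and 164 in vehicle and ran from 304 to 516 (median 405) in treated cells at 72 h. ENSG00000260772 lies wholly inside an exon of NFAT5 on the same strand, and its vehicle libraries of 72 h were at 84.3, 0 and 54.3, with 1 of the 3 listed at 0. They overlapped the treated libraries, and its mean d was 2.63 while that of NFAT5 was 0.21. GOLGA8A was at 1108 ± 144 (SD, n = 3) in vehicle and ran from 2145 to 3587 (median 3011) in treated cells, and its copy GOLGA8B, with 5479 bases at 98.7% identity, had a mean d of 1.16. In all, 15 of the 75 genes had a stretch of at least 100 bases at 98% identity or more in another gene, 30 shared exon bases with a neighbour (26 of them on the opposite strand), and 35 had neither. Whether reads were counted by strand is not given in the sources used here.

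Fixed gene lists placed few of the 75, which made up 0.563% of all genes at the level. At that share most lists or families of this size would hold none. An empty one is therefore not read as a result about the 75. None came from the lists of interferon and antigen presentation (44 genes at the level), senescence secretory factors (9), hypoxia (37), p53 targets (37), FOXO targets and quiescence (33), lysosome and autophagy (64), lipid and sterol metabolism (59), epithelial differentiation and keratins (34) or TGF-beta, BMP, WNT, FGF and Notch signals (60). In their median mean d at 72 h these lists ran from -0.22 for p53 targets to 0.54 for hypoxia, against -0.01 over all genes at the level. The 59 genes of E2F and proliferation had a median mean d of -1.89 at 24 h and -0.95 at 72 h, and the 59 histone genes -2.04 and -1.40. Matrix and adhesion (COL16A1), cilium (DNALI1), muscle (TPM2) and inflammation (GSDMB) each gave 1. Of gene families, G-protein coupled receptors (65 at the level), cadherins (41) and TMEM proteins (157) gave 0, regulators of Ras-like proteins 2 of 175 (RGS2 and ARHGEF38), tyrosine kinases and phosphatases 1 of 55 (PTPRB), and developmental transcription factors 1 of 69 (POU5F1B).

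The choice of the genes set no order between treatments beyond a d of 1 for each, and the agents were compared with each other at equal dose and time with limma on all genes, with Benjamini-Hochberg adjustment within each of 6 comparisons at 72 h. All 75 genes passed the filter of at least 10 normalised counts in at least 3 libraries. The genes tested include some below the mean of 30 that the 75 had to reach. The shares over all genes, here and in the comparisons below, are therefore not matched for level. Of the 75, 23 were called in at least 1 of the 4 comparisons between agents and 52 in none. With atirmociclib at 1 µM, 11 genes were higher than with AU2-94 at 1 µM (14.7%, against 4.53% of 16341 genes tested) and 2 lower (2.67% against 3.7%). At 2 µM, 18 were higher (24% against 11.1%) and 3 lower (4% against 8.73%). These comparisons share no library, but they came from 1 fit with 1 shared estimate of each gene's spread. All 11 genes higher at 1 µM were among the 18 at 2 µM (100% of the first list and 61.1% of the second). Both genes lower at 1 µM were among the 3 at 2 µM. The same overlap over all genes was not counted, so it is not read as particular to the 75. Among the 18 were POTEE, POTEF, POTEI, CYP4F30P, ENSG00000290591, ENSG00000290596 and ENSG00000290700, all of the chromosome 2 cluster. The 11 included POTEE, POTEF, POTEI and ENSG00000290700. Both lists also held PCAT1 and PRNCR1, which lies within its span. The genes of the cluster are not independent, so the shares of higher genes count 1 locus more than once. The median difference of the 75 genes was 0.16 at 1 µM and 0.15 at 2 µM, against 0.00 over all genes. For atirmociclib at 1 µM, the count of higher genes fell to 5 without AU2-94 1 µM replicate 1 and to 5 without atirmociclib 1 µM replicate 2, and was 7 with equal library totals.

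**Figure D5:**
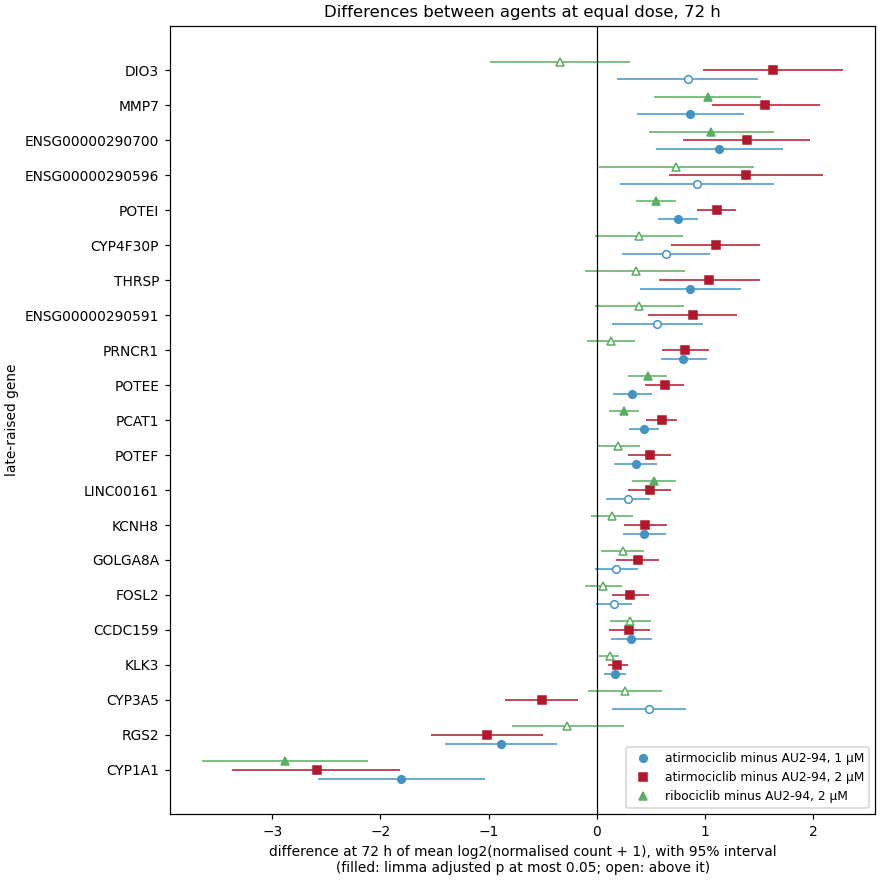
Difference at 72 h of mean log2(normalised count + 1) (x axis, with 95% intervals from limma) between atirmociclib and AU2-94 at 1 µM (blue) and 2 µM (red) and between ribociclib and AU2-94 at 2 µM (green) for the 21 late-raised genes called between atirmociclib and AU2-94 at 2 µM (y axis). Filled marks passed the threshold of 0.05 on the adjusted p, and CYP1A1 and RGS2 lie left of 0 for both doses of atirmociclib while POTEI, MMP7 and PRNCR1 lie right of it.

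Higher with atirmociclib than with AU2-94 at 2 µM were DIO3 by 1.63 (SE 0.31, adjusted p = 0.00087), MMP7 by 1.56 (SE 0.24, adjusted p = 9.8e-05) and ENSG00000290700 by 1.39 (SE 0.28, adjusted p = 0.0014), the 3 largest differences. At 1 µM the 3 largest were ENSG00000290700 by 1.13 (SE 0.28, adjusted p = 0.015), THRSP by 0.86 (SE 0.22, adjusted p = 0.019) and MMP7 by 0.86 (SE 0.24, adjusted p = 0.029). Of the 9 genes of the cluster on chromosome 2, 7 were called higher at 2 µM: POTEI by 1.11 (SE 0.09, adjusted p = 3.9e-08), POTEE by 0.63 (SE 0.09, adjusted p = 2.9e-05) and POTEF by 0.49 (SE 0.09, adjusted p = 0.0011) at 2 µM, with CYP4F30P, ENSG00000290591, ENSG00000290596 and ENSG00000290700. ENSG00000290599, at 0.92 (95% interval 0.03 to 1.81), and ENSG00000290654, at 0.36 (95% interval 0.00 to 0.71), were not called. At 1 µM 4 of the 9 were called, POTEI, POTEE, POTEF and ENSG00000290700. On chromosome 8, PRNCR1 differed by 0.80 (SE 0.10, adjusted p = 4.3e-05) at 1 µM and 0.82 (SE 0.10, adjusted p = 1.4e-05) at 2 µM, and PCAT1 by 0.44 (SE 0.07, adjusted p = 0.00024) and 0.60 (SE 0.07, adjusted p = 3.6e-06). POU5F1B was not called at either dose, at 0.79 (95% interval 0.16 to 1.42) at 2 µM. KLK3 was higher by a small amount, 0.17 (SE 0.05, adjusted p = 0.027) at 1 µM and 0.19 (SE 0.05, adjusted p = 0.0056) at 2 µM. The call at 1 µM was kept under 8 of 17 alternatives and was lost without any 1 of the 3 AU2-94 1 µM libraries or without atirmociclib 1 µM replicate 2 or 3, with adjusted p up to 0.3, and the call at 2 µM was lost with equal library totals and quantile normalisation, up to 0.29. THRSP, KCNH8 and CCDC159 were called higher at both doses, and GOLGA8A, FOSL2 and LINC00161 at 2 µM.

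Lower with atirmociclib were CYP1A1, with a difference of -1.81 (SE 0.37, adjusted p = 0.0039) at 1 µM and -2.59 (SE 0.37, adjusted p = 4.8e-05) at 2 µM, and RGS2, with -0.88 (SE 0.24, adjusted p = 0.03) and -1.01 (SE 0.24, adjusted p = 0.006). CYP3A5 was lower at 2 µM, with a difference of -0.51 (SE 0.16, adjusted p = 0.034), while at 1 µM the difference was 0.48 (95% interval 0.14 to 0.83) and was not called. Between the doses of atirmociclib CYP3A5 fell by 0.87 (SE 0.16, adjusted p = 0.0078).

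Ribociclib and AU2-94 at 2 µM differed in 7 of the genes. Higher with ribociclib were 6 (8%, against 1.96% of all genes): ENSG00000290700 by 1.06 (SE 0.28, adjusted p = 0.044), MMP7 by 1.03 (SE 0.24, adjusted p = 0.022), POTEI by 0.55 (SE 0.09, adjusted p = 0.0019), and LINC00161, POTEE and PCAT1. Lower was 1 (1.33% against 1.38%), CYP1A1, with a difference of -2.88 (SE 0.37, adjusted p = 0.00033). Fitted on these 2 groups alone, 1 gene was called higher. Without AU2-94 2 µM replicate 2 or ribociclib 2 µM replicate 3, 3 were. Atirmociclib and ribociclib at 2 µM differed in 9 genes: 7 were higher with atirmociclib (9.33% against 4.83%), led by DIO3 at 1.97 (SE 0.31, adjusted p = 0.00031), POU5F1B at 1.02 (SE 0.30, adjusted p = 0.038) and CYP4F30P at 0.71 (SE 0.20, adjusted p = 0.027), with PRNCR1, POTEI, PCAT1 and KCNH8 after them. The 2 lower ones (2.67% against 4.35%) were ARLNC1 at -1.15 (SE 0.22, adjusted p = 0.0017) and CYP3A5 at -0.77 (SE 0.16, adjusted p = 0.0048). The 3 comparisons at 2 µM share libraries, so their values stand side by side and their overlap is not read. ENSG00000290700, POTEI, POTEE and CYP4F30P belong to the chromosome 2 cluster, so these shares also count 1 locus more than once.

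Few of the genes were called between doses. Between AU2-94 at 2 and 1 µM, limma called 0 of the 75 genes higher and 0 lower, as it did among all 16341 genes (0% and 0%), and 2 of the 75 had an unadjusted p under 0.05 (2.67%, against 4.48% of all genes). The differences ran from -0.63 to 0.55. For single genes the difference was -0.07 (95% interval -0.17 to 0.03) in KLK3 and 0.01 (95% interval -0.17 to 0.20) in POTEI. The intervals were wider in MMP7, at -0.12 (95% interval -0.62 to 0.37), and in CYP1A1, at 0.39 (95% interval -0.38 to 1.16). Between atirmociclib at 2 and 1 µM, 1 gene was higher (1.33% against 1.25%), POTEI by 0.37 (SE 0.09, adjusted p = 0.034), and 1 lower (1.33% against 0.936%), CYP3A5. With the replicate block, which pairs libraries by the batch given in the labels, 0 were higher and 2 lower. The call of POTEI was also lost with equal library totals, quantile normalisation, no trend, a fit of the 2 groups alone and each left-out library.

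At 24 h few of the 75 genes were called between agents, with shares near or below those over all genes. Atirmociclib and AU2-94 at 1 µM differed in 1 of 75 (1.33%, against 4.64% of 16137 genes), GOLGA8A, which was higher by 0.57 (SE 0.14, adjusted p = 0.02) with atirmociclib. At 2 µM they differed in 6 (8% against 9.44%), all lower with atirmociclib: RGS2 at -1.87 (SE 0.35, adjusted p = 0.0022), SLC45A2 at -1.55 (SE 0.47, adjusted p = 0.046), CYP3A5 at -1.42 (SE 0.33, adjusted p = 0.01), and GSDMB, NATD1 and MDK. Without AU2-94 2 µM replicate 2 of 24 h, 1 gene was left, and the count ran from 1 to 7 over the left-out libraries. Ribociclib and AU2-94 at 2 µM differed in 0 by limma (0.0372% of all genes), with 11 of 75 at an unadjusted p under 0.05 (14.7% against 12.6%). Atirmociclib and ribociclib at 2 µM differed in 4 (5.33% against 4.64%), all lower with atirmociclib: RGS2 at -1.93 (SE 0.35, adjusted p = 0.0027), GSDMB, NFASC and LINC00161. RGS2 was thus lower with atirmociclib at 2 µM than with either other agent at 24 h, at 9.92, 10.6 and 5.33 against 26.5, 29.5 and 45.4 with AU2-94 and 48.9, 32.3 and 25.7 with ribociclib.

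Whether the difference between agents changed from 24 h to 72 h was tested directly, as the difference of both contrasts in a limma fit of all 36 libraries, added after the data were seen. Between atirmociclib and AU2-94 it changed in 4 of 75 genes at 1 µM (5.33%, against 1.91% of 16850 genes) and in 11 at 2 µM (14.7% against 4.52%). Between ribociclib and AU2-94 it changed in 2 (2.67% against 0.184%), and between atirmociclib and ribociclib at 2 µM in 3 (4% against 1.19%). All 20 changes were upward, that is, towards atirmociclib or ribociclib over AU2-94 or towards atirmociclib over ribociclib at 72 h. They fell on 13 genes, so several genes count more than once, and the comparisons at 2 µM share libraries. Several of the 13 belong to the chromosome 2 cluster, whose genes are not independent. The shares over all genes count both directions, so the direction is not read as particular to the 75. POTEI, PRNCR1, PCAT1 and THRSP changed at both doses of atirmociclib against AU2-94. Of these, PRNCR1 kept its call under all 19 alternatives at both doses. POTEI and PCAT1 kept theirs under all 19 at 2 µM, but under 15 and 7 of 19 at 1 µM. THRSP kept its call under 6 of 19 at each dose, with adjusted p up to 0.12 at 1 µM and 0.11 at 2 µM. The count at 2 µM was 6 without AU2-94 2 µM replicate 2 of 72 h, and the count at 1 µM was 1 without AU2-94 1 µM replicate 3 or atirmociclib 1 µM replicate 2 of 72 h. With the replicate block 1 gene instead of 2 changed between ribociclib and AU2-94.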

How the data were processed

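Total RNA of LNCaP cells was extracted with TRIzol and sequenced after a Universal Plus Total RNA-Seq library preparation. The authors deposited normalised counts, a non-negative signal per gene, and the submitters' processing notes name STAR 2.6.1d, DESeq2 and GRCh38. The read counter, annotation and strand setting are not given in the sources used here. Values were not whole multiples of a step (15.2 to 46.1% of low values within 0.01 of a step), so reads were not recovered and no count model was run.

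Values were taken as log2(value + 1). Treatments were compared with limma 3.58.1 in R 4.3.3 (trend on), with the 6 groups of a time point (18 libraries) in 1 fit, a filter of at least 10 in at least 3 libraries, and Benjamini-Hochberg adjustment within each comparison, called at an adjusted p of at most 0.05. On simulated data 174 of 200 planted log2 changes of 1.5 were recovered among 16341 genes, with 181 calls, for atirmociclib against AU2-94 at 2 µM and 72 h. No smaller change was planted, so the recovery of smaller differences is not known. The labels give the replicate number as a batch, which is the source of the pairing. Deviations of libraries with the same number correlated by 0.0018 on average at 24 h and -0.0022 at 72 h (45 pairs each).

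The set and the gene lists were chosen with earlier results of these data known. The text names the 12 genes with the largest mean d at 72 h among those with a mean of at least 100, the 8 with the highest level, genes of a list or family, the 3 largest called differences per direction and the 3 genes on each side of a threshold. Other members are named so that all 75 are accounted for, after their values were seen. Windows around start sites came from GRCh38 with GENCODE release 44, and printed sequences from RefSeq. Near-identical stretches were found with blastn 2.17.0+.

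The alternatives were other pseudocounts, filters, thresholds and normalisations, the replicate block, no trend, p adjusted over all contrasts of a time point, a fit of only the 2 groups compared and each library left out.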

Additional observations from a re-analysis of the deposited data

Results flagged for a closer look

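The difference between agents changed from 24 h to 72 h in 20 cases, each tested with limma as the difference of both contrasts over all 36 libraries with Benjamini-Hochberg adjustment. Values are changes of the log2 difference, and all were upward. The direction of the changes over all genes was not counted.

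Between atirmociclib and AU2-94 at 1 µM the changed genes were THRSP by 1.63 (adjusted p = 0.042), PRNCR1 by 0.75 (adjusted p = 0.0024), POTEI by 0.52 (adjusted p = 0.021) and PCAT1 by 0.46 (adjusted p = 0.036). THRSP went from -0.77 at 24 h to 0.86 at 72 h and PRNCR1 from 0.05 to 0.80.

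At 2 µM they were MMP7 by 2.13 (adjusted p = 0.0041), ENSG00000290700 by 1.60 (adjusted p = 0.039), THRSP by 1.52 (adjusted p = 0.037), CYP4F30P by 1.13 (adjusted p = 0.013), POTEI by 1.01 (adjusted p = 2.8e-06), POTEE by 0.81 (adjusted p = 0.00042), LINC00161 by 0.75 (adjusted p = 0.0067), PRNCR1 by 0.67 (adjusted p = 0.0036), PCAT1 by 0.66 (adjusted p = 0.00063), KCNH8 by 0.63 (adjusted p = 0.038) and POTEF by 0.43 (adjusted p = 0.045). MMP7, the secreted metalloprotease, went from -0.57 to 1.56, and POTEI from 0.10 to 1.11. The genes POTEE, POTEF, POTEI, CYP4F30P and ENSG00000290700 lie in 1 cluster on chromosome 2 with near-identical copies, so they are not separate observations. PRNCR1 lies within the span of PCAT1 on the same strand, and whether their changes are separate was not tested.

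Between atirmociclib and ribociclib at 2 µM they were NFASC by 1.23 (adjusted p = 0.027), PRNCR1 by 0.80 (adjusted p = 0.0018) and PCAT1 by 0.54 (adjusted p = 0.013). Between ribociclib and AU2-94 at 2 µM they were GOLGA8A by 0.81 (adjusted p = 0.044) and POTEI by 0.63 (adjusted p = 0.017). Groups held 3 libraries, so no single library was tested for standing apart.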

How the results depend on the processing

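The number of genes chosen was 49 with a pseudocount of 8, 123 and 38 with a minimum mean of 10 and 100, and 155 and 38 with d of at least 0.8 and 1.2. It ran from 67 to 90 over the left-out libraries, with 67 without ribociclib 2 µM replicate 3 of 72 h and 90 without vehicle replicate 1 of 72 h. Membership moved more than the count: without vehicle replicate 1, 2 or 3 of 72 h, 63, 58 and 65 of the 75 were kept, among 90, 73 and 84 genes. With group medians 59 of the 75 were kept among 75 genes, and with quantile normalisation 52 among 54. The median vehicle change was -0.71 with a pseudocount of 8 and -0.73 with quantile normalisation.

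Of the genes called at 72 h between atirmociclib and AU2-94 at 1 µM, 7 were higher with no filter and 7 with equal totals, while 1 was lower with no filter, 0 with a mean of at least 100 and 1 with quantile normalisation. At 2 µM 1 was lower with a mean of at least 100. Between ribociclib and AU2-94, 1 was higher with only the 2 groups compared and 0 were lower with a mean of at least 100. Between atirmociclib and ribociclib, 4 were higher with no filter, and 1 and 4 lower with a mean of at least 100 and with equal totals. Between the atirmociclib doses, 0 were higher with equal totals, quantile normalisation, the replicate block, no trend and only the 2 groups compared, and 2 were lower with the replicate block. Over the left-out libraries the counts higher and lower were 5 to 8 and 1 to 2 (atirmociclib and AU2-94, 1 µM), 16 to 19 and 2 to 4 (2 µM), 3 to 5 and 1 to 2 (ribociclib and AU2-94), 4 to 6 and 2 to 3 (atirmociclib and ribociclib), 0 to 0 and 0 to 0 (AU2-94 doses), and 0 to 0 and 0 to 1 (atirmociclib doses).

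At 24 h, atirmociclib and AU2-94 at 1 µM differed in 2 genes with quantile normalisation and 0 with no trend or only the 2 groups compared (0 to 1 over left-out libraries). At 2 µM they differed in 3 with no filter, quantile normalisation or p adjusted over all contrasts, and 2 with a mean of at least 100 or only the 2 groups compared (1 to 7). Ribociclib and AU2-94 differed in 1 with p adjusted over all contrasts (0 to 0), and atirmociclib and ribociclib in 1 with no filter and 2 with a mean of at least 100, quantile normalisation, p adjusted over all contrasts or only the 2 groups compared (1 to 3). The change with time was called in 2 genes with no filter or equal totals for atirmociclib and AU2-94 at 1 µM (1 to 4), in 7 with no filter at 2 µM (6 to 13), and in 1 with no filter, equal totals, quantile normalisation or the replicate block for ribociclib and AU2-94 (0 to 2), and ran from 2 to 3 for atirmociclib and ribociclib. The causes were not tested.

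No difference reversed under the alternatives run. Under every one of them, 29 of 52 single differences at 72 h, 2 of 11 at 24 h and 8 of 20 changes with time kept their call. Library counts were not recovered, so no counting interval can be given, and 37 of the 75 genes had a mean under 100.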
